A study of Homo sapiens with 3 samples.

Results

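The 37 genes described here are interferon-stimulated genes, read out in single cells of a co-culture of the human colorectal cancer lines Caco-2 and HT29. They were taken by gene symbol, and all 37 were found among the 33538 genes of the count matrices. Caco-2 (passage 8) and HT29 (passage 13) cells, both from ATCC, were seeded together with Caco-2 in excess into the apical chamber of 3 Transwells, which are porous inserts on which epithelial cells form a sheet. All 3 were harvested on day 23. 2 Transwells were untreated controls (control 1 and control 2), and 1 received 1 ng/ml lipopolysaccharide (LPS) of Escherichia coli from day 22 for 24 h. Each Transwell gave 1 library, so the LPS group has no replicate, and whatever else set its Transwell or library apart cannot be told apart from LPS.

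Type I and type III interferons bind their receptors and activate JAK1 and TYK2, which phosphorylate transcription factors such as STAT2. With IRF9 these form the complex ISGF3, which binds the interferon-stimulated response element in the promoters of genes such as those listed here. The products sense viral RNA, block its translation, degrade it or hold budding virions at the membrane. In the intestine, the epithelium responds mainly to type III interferon. LPS acts through TLR4 and its partners CD14 and LY96 (MD-2), from which TICAM1 (TRIF) can lead to interferon beta in cells that carry them.

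The sequence that the members share lies close to their starts. RefSeq promoter windows (GRCh38.p14, 250 bases before to 50 after each start) were found for 30 of the 37 members, DDX58 under its later symbol RIGI, and none was found for 7 (IFIT2, MX2, OAS2, OASL, USP18, IRF7 and TRIM22). The letters GAAA-NN-GAAA (N is any base), the core of the response element, were searched on both strands with overlaps counted. They occurred in at least 1 window of 20 of the 30 members (66.7%), against 4.38% of the 27305 genes of the table and 3.57% of its 35116 windows. The letters TTCNNNGAA, a STAT dimer motif that reads the same on both strands, occurred in 9 of the 30 members, against 9.38% of the genes. A match describes letters and not binding. 8 stretches are shown because they belong to the most abundant members (ISG15, IFI27, IFI6), to members that rose with LPS in HT29-line cells (IFIT1, IFIT3, IFI44L, SAMD9), and to PARP9, which shares its motif with a neighbour. Each is written 5′ to 3′ on the strand of its gene, ends before the start, and has the letters GAAA-NN-GAAA, or TTTC-NN-TTTC where they lie on the other strand, in capitals.

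ISG15: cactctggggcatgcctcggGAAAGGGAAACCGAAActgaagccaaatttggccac
IFI27: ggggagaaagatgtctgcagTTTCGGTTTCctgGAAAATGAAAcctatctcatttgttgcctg
IFI6: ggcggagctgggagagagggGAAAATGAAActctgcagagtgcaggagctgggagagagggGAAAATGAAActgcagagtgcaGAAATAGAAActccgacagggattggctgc
IFIT1: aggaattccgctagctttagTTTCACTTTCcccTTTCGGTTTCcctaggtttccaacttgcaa
IFIT3: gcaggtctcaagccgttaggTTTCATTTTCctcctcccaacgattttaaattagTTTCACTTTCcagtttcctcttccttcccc
IFI44L: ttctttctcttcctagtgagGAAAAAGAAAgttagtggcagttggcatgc
SAMD9: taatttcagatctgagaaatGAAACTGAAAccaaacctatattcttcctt
PARP9: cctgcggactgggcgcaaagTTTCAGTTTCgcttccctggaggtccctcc

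The ISG15 stretch lies at chr1:1013364-1013419 on the plus strand and holds 2 overlapping copies, the first of which begins 113 bases before the start. IFI27 (chr14:94110608-94110670, plus) carries 1 copy on each strand, and IFI6 (chr1:27672256-27672368, minus) carries 3 copies. IFIT1 (chr10:89392487-89392549, plus) and IFIT3 (chr10:89327821-89327904, plus) hold 2 copies each. The SAMD9 stretch is at chr7:93118086-93118135 on the minus strand. The IFI44L stretch (chr1:78620355-78620404, plus) holds the copy nearest the start, and 23 of its bases lie in an annotated exon of IFI44L itself, as do 4 bases of the IFIT1 stretch in IFIT1. The PARP9 motif (chr3:122564332-122564341) is the same 10 bases as the motif of DTX3L, which is transcribed from the opposite strand, and 28 bases of that stretch are exonic in one of the pair or the other. Among members with a window, the letters GAAA-NN-GAAA were not in these windows of RIGI (DDX58), OAS1, CMPK2, SAMD9L, XAF1, HERC6, STAT2, IRF9, UBE2L6 and IFI35. 20 members lie in 8 blocks with another member within 200 kb, such as IFIT2, IFIT3, IFIT1 and IFIT5 on chromosome 10, OAS1, OAS3 and OAS2 on chromosome 12, and MX2 and MX1 on chromosome 21.

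RNA was counted with the 10x Genomics 3′ assay, in which each captured molecule carries a unique molecular identifier (UMI) and is read near its 3′ end, so levels are given in CPM (UMIs of a gene per 1000000 UMIs) without division by gene length. The libraries held 24185467 to 33893707 UMIs in 5811 to 6838 barcodes, and 4633 cells of control 1, 4989 of control 2 and 4850 of the LPS library were kept. Cells were assigned to a line by 30 HT29 and 25 Caco-2 marker genes, none of them a member, in a 2-component mixture with a posterior of at least 0.9. Of the kept cells, 3889, 3872 and 3921 were in the Caco-2 line and 646, 987 and 847 in the HT29 line (control 1, control 2, LPS), and 310 of 14472 were in neither. These markers set the lines, so their separation is no independent check. The HT29 markers summed to 11256 to 14459 CPM in HT29-line cells and 334.3 to 391.7 CPM in Caco-2-line cells. The Caco-2 markers summed to 16296.5, 14325.8 and 14153.6 CPM in Caco-2-line cells (control 1, control 2, LPS). In HT29-line cells they summed to 1355, 1353 and 1651 CPM. The level that Caco-2-line RNA can leave of the members in HT29-line cells was not estimated. Of the markers of other cells, PTPRC, the pan-leukocyte marker CD45, and HLA-DRA had 0 to 3 UMIs in any line and library. CD68, a lysosomal protein, was at 20.7 to 27.1 CPM in both lines. CD3E was at 3.16, 2.53 and 4.07 CPM in Caco-2-line cells (control 1, control 2, LPS) and at most 0.246 CPM in HT29-line cells. CD79A was at most 0.739 CPM. COL1A1, at 8.08 and 11.1 CPM in Caco-2-line cells of the controls, made up most of the fibroblast sum there. The 5 immune genes summed to at most 27.3 CPM, the 3 fibroblast genes to at most 11.6 CPM and the 2 endothelial genes to at most 2.89 CPM in any line and library. Median depth was 5406.5, 3743 and 3590 UMIs per HT29-line cell and 5431, 4176 and 3553 per Caco-2-line cell, and the 3 libraries shared 9 to 11 barcodes by pair. 10 genes that lead the HT29 signature but were not used for the lines gave the level that free RNA or misplaced cells can leave in Caco-2-line cells. It was a median of 0.690%, 1.10% and 1.23% of their HT29-line level in control 1, control 2 and the LPS library, and at most 1.07%, 6.46% and 4.38%. These genes lead a list of the study that was made with the same control libraries. For the 30 HT29 markers the share was higher, at medians of 1.92%, 2.42% and 1.88% and at most 9.69%, 10.3% and 13.3%.

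The members were at a higher level in the HT29-line cells. The more numerous Caco-2-line cells still held many of their UMIs, at 11298, 10053 and 7961 against 10918, 11785 and 15356 in HT29-line cells. The members summed to 2689, 2828 and 4413 CPM in HT29-line cells (control 1, control 2, LPS) and to 452.1, 519.4 and 483.9 CPM in the Caco-2-line cells. The HT29-line sum was above the Caco-2-line sum in every library. Of the 35 members with enough UMIs to test, 30 were higher and 2 lower in HT29-line cells with edgeR's quasi-likelihood test on UMIs summed per line and library, with the library as a block and Benjamini-Hochberg adjustment over all genes. With this test 72.8% of all 14006 genes were called, 35% higher and 37.7% lower, so a call alone says little about a member. The median log2 difference was 2.39 over the members and -0.06 over all genes. In the control libraries alone 29 of 34 were higher and 4 lower, with a median of 1.96. There, too, most genes were called, 9527 of 14288 (4635 higher and 4892 lower), and the median over all genes was -0.06. The study lists IRF7, MX2, IFI27, IFI6, ISG15, IFI44, SAMD9 and IFIT1 as markers of its undifferentiated HT29 cells from the same control libraries, and their direction here is therefore no independent support.

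**Figure D1:**
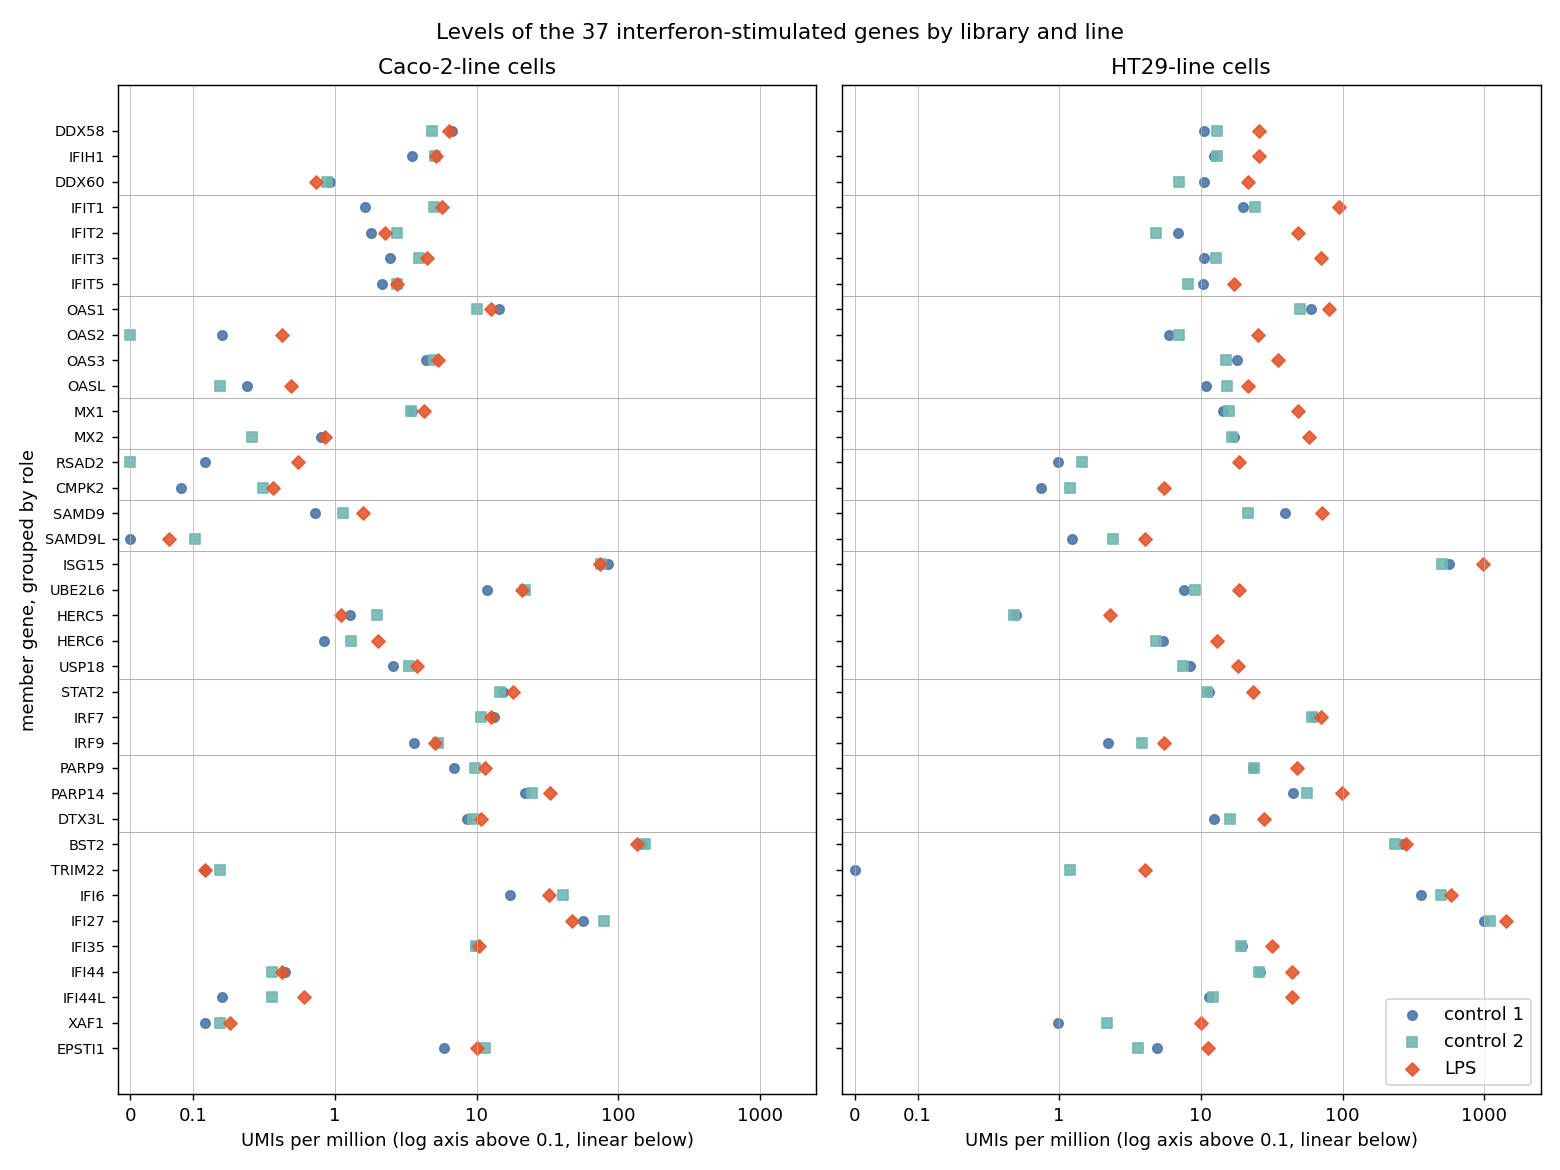
Level of each member in CPM (horizontal, log axis above 0.1 and linear below) in Caco-2-line cells on the left and HT29-line cells on the right, with 1 point per library and members grouped by role. IFI27 lies between 1005 and 1416 CPM in HT29-line cells and between 47.2 and 78.9 CPM in Caco-2-line cells, and the LPS points stand to the right of both controls for the members tested in the HT29-line panel.

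4 members made up most of the signal. ISG15, a ubiquitin-like protein that is conjugated to targets and also secreted, was at 565.4, 502.9 and 982.3 CPM in HT29-line cells and at 84.4, 75.2 and 74.3 CPM in Caco-2-line cells (control 1, control 2, LPS). IFI27, a small membrane protein of mitochondria and the nuclear envelope, was at 1005, 1105 and 1416 CPM against 56.8, 78.9 and 47.2 CPM. IFI6, a membrane protein that limits flavivirus replication, was at 361.0, 497.4 and 587.7 CPM against 17.1, 41.0 and 32.4 CPM. All 3 were separated between the lines in every library, with log2 differences of 3.01 ± 0.14 (SE of the fit) for ISG15, 4.22 ± 0.14 for IFI27 and 3.99 ± 0.12 for IFI6. BST2 (tetherin), which holds budding virions at the cell surface, differed least of the 4, at 266.0, 235.2 and 282.8 CPM against 147.9, 153.6 and 135.3 CPM. Its log2 difference was 0.78 ± 0.09. These 4 genes held 81.7%, 82.8% and 74.1% of the members' UMIs in HT29-line cells and 67.7%, 67.1% and 59.8% in Caco-2-line cells.

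Some members were very low in Caco-2-line cells. IFI44, whose product is a cytoplasmic protein of the same family as that of its neighbour IFI44L, was at 26.4, 25.7 and 44.3 CPM in HT29-line cells and at 0.440, 0.362 and 0.425 CPM in Caco-2-line cells. OAS2, which makes the 2-5A second messenger that activates RNase L, was at 5.91, 6.96 and 25.3 CPM against 0.160, 0 and 0.425 CPM. MX2, a dynamin-like GTPase that restricts HIV-1, was at 17.2, 16.6 and 57.8 CPM against 0.800, 0.258 and 0.851 CPM. The Caco-2-line values of IFI44 were 1.67%, 1.41% and 0.961% of those in HT29-line cells, above the highest of the leading HT29 genes in control 1 and below it in the other libraries. Only SAMD9L was at or below the highest leading gene in all 3 libraries, so its Caco-2-line level could not be told from free RNA or misplaced cells. In control 2 and the LPS library, but not in control 1, the same held for OAS2, OASL, MX2, RSAD2, SAMD9, IFI44 and IFI44L. In the LPS library alone it also held for DDX60, TRIM22, XAF1 and IFI27, the last at 3.33% of its HT29-line level. The control 1 values of RSAD2, OAS2 and OASL rest on 3, 4 and 6 Caco-2-line cells with a UMI. Against the highest of the 30 HT29 markers, SAMD9L, OAS2, OASL, MX2, SAMD9, IFI44, IFI44L, IFI6 and IFI27 lay below in all 3 libraries. The largest fitted log2 differences were those of IFI44 (6.14 ± 0.21), OAS2 (5.87 ± 0.36), IFI44L (5.77 ± 0.26), OASL (5.66 ± 0.28) and MX2 (5.35 ± 0.25).

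A second set was present in both lines. The RNA sensors DDX58 (RIG-I) and IFIH1 (MDA5) were 1.58 to 4.05 and 2.56 to 5.01 times as high in HT29-line as in Caco-2-line cells over the 3 libraries. PARP14, an ADP-ribosyltransferase, was at 45.1, 55.9 and 99.7 CPM in HT29-line and 21.9, 24.5 and 33.1 CPM in Caco-2-line cells, and its partner genes PARP9 and DTX3L were 2.45 to 4.13 and 1.43 to 2.59 times as high. The transcription factor IRF7 was 4.77 to 5.72 times as high in HT29-line cells. STAT2 and IRF9, subunits of ISGF3, were not. STAT2 was at 11.3, 11.04 and 23.3 CPM against 15.4, 14.5 and 18.2 CPM. IRF9 was at 2.22, 3.84 and 5.46 CPM against 3.60, 5.32 and 5.04 CPM. Neither passed the test (adjusted p = 0.329 and 0.199, edgeR), but in the control libraries alone STAT2 was called lower in HT29-line cells. HERC5, the main ligase of ISG15 in human cells, had 2, 2 and 8 UMIs in HT29-line cells and did not pass either (adjusted p = 0.349), and it too was called lower in the control libraries alone.

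Further members were higher in HT29-line cells. In the IFIT family, IFIT1 was at 1.64, 4.96 and 5.65 CPM in Caco-2-line cells, IFIT2 at 1.80, 2.74 and 2.25 CPM, IFIT3 at 2.44, 3.93 and 4.44 CPM and IFIT5 at 2.16, 2.74 and 2.74 CPM, and all 4 were called higher in HT29-line cells, by 2.13 for IFIT5 to 3.30 for IFIT1 on the log2 scale. OAS1 and OAS3, synthetases of the same kind as OAS2, were at 14.3, 10.0 and 12.6 CPM and at 4.40, 5.01 and 5.35 CPM in Caco-2-line cells, with log2 differences of 2.29 ± 0.12 and 2.09 ± 0.18. MX1, at 3.48, 3.46 and 4.25 CPM in Caco-2-line cells, had a log2 difference of 2.60 ± 0.22. HERC6, a relative of HERC5, and USP18, which removes ISG15 from its targets and restrains the interferon receptor, were higher in HT29-line cells by 2.39 and 1.71. IFI35, a leucine zipper protein, differed by 1.13, from 19.5, 19.2 and 31.6 CPM against 9.72, 9.92 and 10.5 CPM. RSAD2 and XAF1 were called on few UMIs, and CMPK2 and TRIM22 had too few to be tested between the lines, with TRIM22 at 0 in the HT29-line cells of control 1.

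UBE2L6 and EPSTI1 had the opposite direction. UBE2L6, the enzyme that carries ISG15 to its ligase, was at 7.63, 9.12 and 18.7 CPM in HT29-line cells and at 11.8, 21.9 and 21.0 CPM in Caco-2-line cells, lower in HT29-line cells in all 3 libraries, with a log2 difference of -0.71 ± 0.18 and an adjusted p of 0.00113. EPSTI1 was at 4.93, 3.60 and 11.2 CPM against 5.88, 11.4 and 10.0 CPM, so the LPS library had the other direction, and its log2 difference was -0.56 ± 0.25 (adjusted p = 0.0462, edgeR). Without control 2 neither was called and 30 members were, all higher. The call of EPSTI1 was also lost with DESeq2, without the library as a block and with the cell minimums of control 1 in all libraries. 31 of the 37 members were higher in HT29-line cells in every library and only UBE2L6 was lower in every library. The same count over all genes was not made.

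Within the HT29-line cells, the members were higher in the LPS library than in either control. Of the 36 tested, 11 rose by the edgeR test on summed UMIs, which had 1 residual degree of freedom and assumed that the lone LPS library varies as the controls do. The spread between libraries behind the p-values therefore comes from the controls only. The fit also draws each gene's spread toward a trend over all genes, to a degree set separately in each comparison. A gene's own gap between the controls thus had practically no weight here. A very small p-value therefore does not measure a gene's own spread between libraries. SAMD9, at 39.4 and 21.6 CPM in the controls, had an SE of 0.25, and MX2, at 17.2 and 16.6 CPM, had 0.26. No spread among LPS Transwells could be measured, since that group has no replicate. The background was 0.232% of 12059 genes called, 0.182% higher and 0.0498% lower. All 36 had a positive log2 difference, with a median of 1.08, and the median over all genes was 0.00. The LPS library was above both controls for 36 of 36, against 39.4% of all genes, and the 37th, HERC5, had too few UMIs to test. DESeq2 called 4 of the 11 (IFIT1, IFIT2, IFIT3 and RSAD2), and with no filter on low counts edgeR called none, with 28 members at an unadjusted p below 0.05. Interferon genes had been seen to be higher in this library when the list was drawn up, so the direction is a description and not a fresh test. As everywhere in summed counts, more RNA per cell and more cells with the RNA cannot be told apart in these values.

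3 members of the IFIT family and RSAD2 had some of the largest differences. IFIT1, IFIT2 and IFIT3 form a complex that binds viral RNA lacking the host cap methylation and blocks its translation. IFIT2 was at 6.90 and 4.80 CPM in the controls and 48.6 CPM in the LPS library, from 28, 20 and 169 UMIs. Its log2 difference was 3.0 ± 0.28 (adjusted p = 9.56e-22, edgeR). IFIT3 was at 10.6, 12.7 and 70.7 CPM (log2 2.54 ± 0.26) and IFIT1 at 19.7, 24.2 and 94.3 CPM (log2 2.05 ± 0.25). In all 3 the gap between the controls was small beside their distance from the LPS library. IFIT5, in the same block on chromosome 10, was at 10.3, 8.16 and 17.2 CPM and did not pass (log2 0.84 ± 0.31, adjusted p = 0.849).

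RSAD2 (viperin), which makes the chain terminator ddhCTP, had 4 and 6 UMIs in the HT29-line cells of the controls and 65 in the LPS library, or 0.985, 1.44 and 18.7 CPM. Its log2 difference was 3.85 ± 0.46 (adjusted p = 1.06e-13, edgeR). Its neighbour CMPK2, a mitochondrial nucleotide kinase, had 3, 5 and 19 UMIs and did not pass (adjusted p = 0.471). The values of both rest on few UMIs in the controls.

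The other members that rose were spread over the roles. Of the MX pair, MX1, which blocks influenza and other RNA viruses, was at 14.3, 15.8 and 48.3 CPM (log2 1.63 ± 0.26) and MX2 at 17.2, 16.6 and 57.8 CPM (log2 1.72 ± 0.26). OAS2 rose (log2 1.92 ± 0.31), whereas OAS1 at 60.1, 50.4 and 80.8 CPM, OAS3 at 18.0, 15.1 and 35.1 CPM and OASL at 10.8, 15.4 and 21.6 CPM did not pass (adjusted p = 0.999, 0.0505 and 0.999). IFI44L rose from 11.3 and 12.2 to 44.0 CPM (log2 1.84 ± 0.27), and its neighbour IFI44 had a log2 difference of 0.71 ± 0.26 (adjusted p = 0.805). SAMD9, a restriction factor for poxviruses, was at 39.4, 21.6 and 72.1 CPM (log2 1.19 ± 0.25), with controls that differed from each other. The helicase DDX60 was at 10.6, 6.96 and 21.6 CPM (log2 1.24 ± 0.30), and XAF1, a pro-apoptotic XIAP antagonist, had 4, 9 and 35 UMIs (log2 2.59 ± 0.55). So within the IFIT, OAS and IFI44 blocks some neighbours passed the test and others did not, and differences between neighbours were not tested.

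Of the genes that sense RNA or carry the interferon signal, DDX60 passed the test, and others were above both controls without passing. DDX58 was at 10.6, 13.0 and 25.9 CPM (log2 1.08 ± 0.28, adjusted p = 0.0511) and IFIH1 at 12.3, 13.0 and 25.9 CPM (log2 0.98, adjusted p = 0.140, edgeR). STAT2 was at 11.3, 11.04 and 23.3 CPM (log2 1.00 ± 0.29, adjusted p = 0.148), and IRF9 had a log2 difference of 0.79 ± 0.58. In each of the first 3 the controls were close and the LPS value was about 2 times theirs. Among the genes of ISG15 conjugation, UBE2L6 was at 7.63, 9.12 and 18.7 CPM, USP18 at 8.37, 7.44 and 18.4 CPM and HERC6 at 5.42, 4.80 and 12.9 CPM. None of these 3 or ISG15 was called at the settings of the main comparison by edgeR or by DESeq2, and the unadjusted edgeR p lay between 0.000159 for ISG15 and 0.000702 for HERC6. PARP14, PARP9 and DTX3L had log2 differences of 0.93, 0.95 and 0.92. With the higher cell minimums of control 1 in all libraries, ISG15, OAS3, PARP14 and PARP9 were called in addition. With a line posterior of at least 0.99, DDX58, ISG15, OAS3, PARP14, STAT2 and USP18 were, and with no cells removed for their doublet score DDX58 and OAS3 were.

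Among the members with the smallest differences were 3 of the 4 most abundant. BST2 had a log2 difference of 0.12 ± 0.24, IRF7 of 0.13 ± 0.25, IFI27 of 0.37 ± 0.21 and IFI6 of 0.40 ± 0.23 between the LPS and control HT29-line cells, and none passed (adjusted p = 0.999 for each, edgeR). ISG15 had a log2 difference of 0.82 ± 0.22 and an adjusted p of 0.0617. The 5 genes differed to unlike degrees from 1 control to the other, IFI6 by most, at 361.0 and 497.4 CPM, and IRF7 by least, at 62.8 and 61.2 CPM. Without them and OAS1 the differences of the members that did not pass ran from 0.66 for IFI35 to 2.62 for TRIM22, which had 0, 5 and 14 UMIs and whose fitted value depends on the prior count of the fit.

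**Figure D2:**
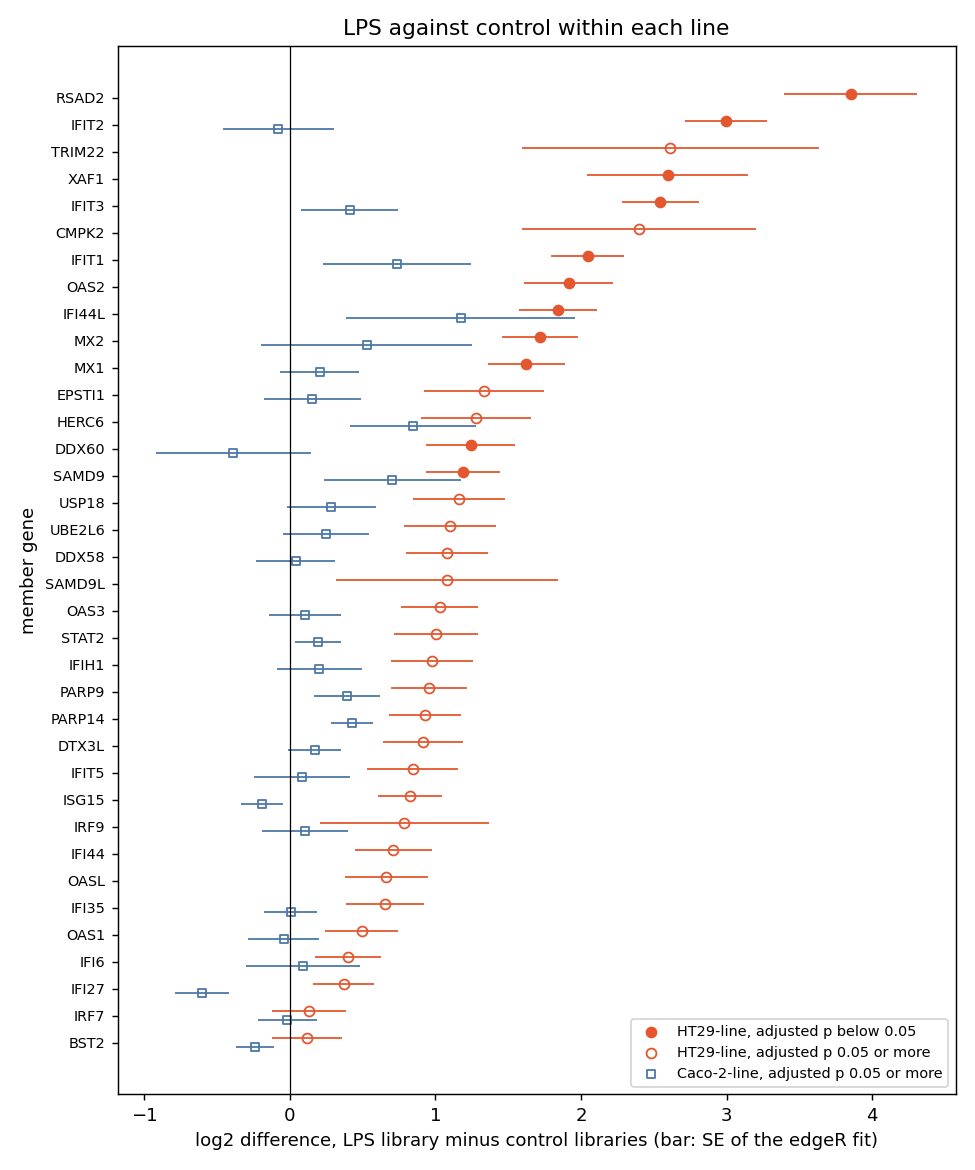
Log2 difference between the LPS library and the controls for the 36 members tested in HT29-line cells (red circles, filled where the adjusted p was below 0.05) and those of the 29 tested in Caco-2-line cells that are among them (blue squares), with the SE of the edgeR fit as bars. All red points lie right of 0, from 0.12 for BST2 to 3.85 for RSAD2, and the blue points lie on both sides of 0.

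In the Caco-2-line cells no member passed. Of 29 tested, edgeR called 0, with 2 at an unadjusted p below 0.05 (PARP14 and IFI27), DESeq2 called 0, and without the filter on low counts edgeR called IFI27 lower. The background was 1 of 15470 genes (0.00646%). The median log2 difference was 0.16 over these members and 0.01 over all genes, and the LPS library was above both controls for 15 of 29 and below both for 5, against 49% and 23.9% of all genes. IFI27 was at 56.8 and 78.9 CPM in the controls and 47.2 CPM in the LPS library (log2 -0.60 ± 0.19, adjusted p = 0.841, edgeR). PARP14 was at 21.9, 24.5 and 33.1 CPM (log2 0.43 ± 0.14, adjusted p = 0.841). The 2 controls themselves differed, with IFIT1 at 1.64 and 4.96 CPM and IFI6 at 17.1 and 41.0 CPM, so the spread against which LPS was tested was wide for these genes. The fit in Caco-2-line cells also gave more weight to each gene's own spread than the fit in HT29-line cells. A difference of the same size relative to its SE therefore had a larger p-value here. The numbers of members called in the 2 lines cannot be compared for this reason. Control 2 was higher than control 1 for 21 of the 30 members with at least 10 UMIs in the pair, with a median log2 ratio of 0.35, against 58% of all genes and a median of 0.05. In HT29-line cells the 2 controls were closer, with 18 of 34 members higher in control 2 and a median log2 ratio of 0.05.

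The difference of the LPS effect between the lines was tested itself, as an interaction. 4 of 37 members had a larger LPS difference in HT29-line than in Caco-2-line cells, against 0.106% of 15064 genes called, 0.0996% in that direction and 0.00664% in the other. They were IFIT2 (3.07 ± 0.43 on the log2 scale, adjusted p = 9.23e-05), IFIT3 (2.13 ± 0.33, adjusted p = 0.000510), ISG15 (1.01 ± 0.17, adjusted p = 0.00140) and IFI27 (0.96 ± 0.16, adjusted p = 0.00152, edgeR). For ISG15 the log2 differences were 0.82 in HT29-line and -0.19 in Caco-2-line cells, and for IFI27 they were 0.37 and -0.60, and none of these 4 values passed alone. DESeq2 called none of the 37 at the same threshold, with 5 at an unadjusted p below 0.05, and with the longer line lists of the study edgeR called none, with 16 at an unadjusted p below 0.05. For members near 0 in Caco-2-line cells, the interaction was imprecise, with an SE of 1.61 for RSAD2 and 2.65 for SAMD9L. The Caco-2-line level of IFI27 in the LPS library was 3.33% of its HT29-line level. That is below the highest leading HT29 gene there (4.38%).

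Over all cells of a library, 9 of the 37 members rose with LPS and none fell, against 0.131% of 16080 genes called (0.0684% higher and 0.0622% lower). They were the 11 of the HT29-line test without DDX60 and XAF1. RSAD2 had the largest log2 difference, 3.58 ± 0.45. The HT29-line share of cells was 13.9%, 19.8% and 17.5%, so the LPS library lay between the controls in its line makeup. DESeq2 called 3 of the 9 (IFIT1, IFIT3 and RSAD2), and edgeR called 4 (IFIT2, IFIT3, MX2 and RSAD2) when the higher cell minimums of control 1 were used in all libraries.

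The members were not spread evenly over the HT29-line cells. Each cell was thinned to 1500 UMIs so that depth could not set the number of members detected. In HT29-line cells the median number of members with a UMI was 2 in each library, and the most in 1 cell was 13, 14 and 23 (control 1, control 2, LPS). Cells with 5 or more members were 74 of 646 (11.5%, exact 95% interval 9.10% to 14.2%), 86 of 987 (8.71%, 7.03% to 10.6%) and 166 of 847 (19.6%, 17.0% to 22.4%). In the Caco-2-line cells of the same libraries they were 0.309%, 0.413% and 0.561%. Cells with 8 or more were 14, 19 and 65 HT29-line cells and 1, 1 and 5 Caco-2-line cells. The share of HT29-line cells with at least 1 member was 81.6%, 84.4% and 80.5%, so the libraries were closer at the low end than at the high end. The intervals cover counting error only, and 1 LPS library gives no test between conditions.

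**Figure D3:**
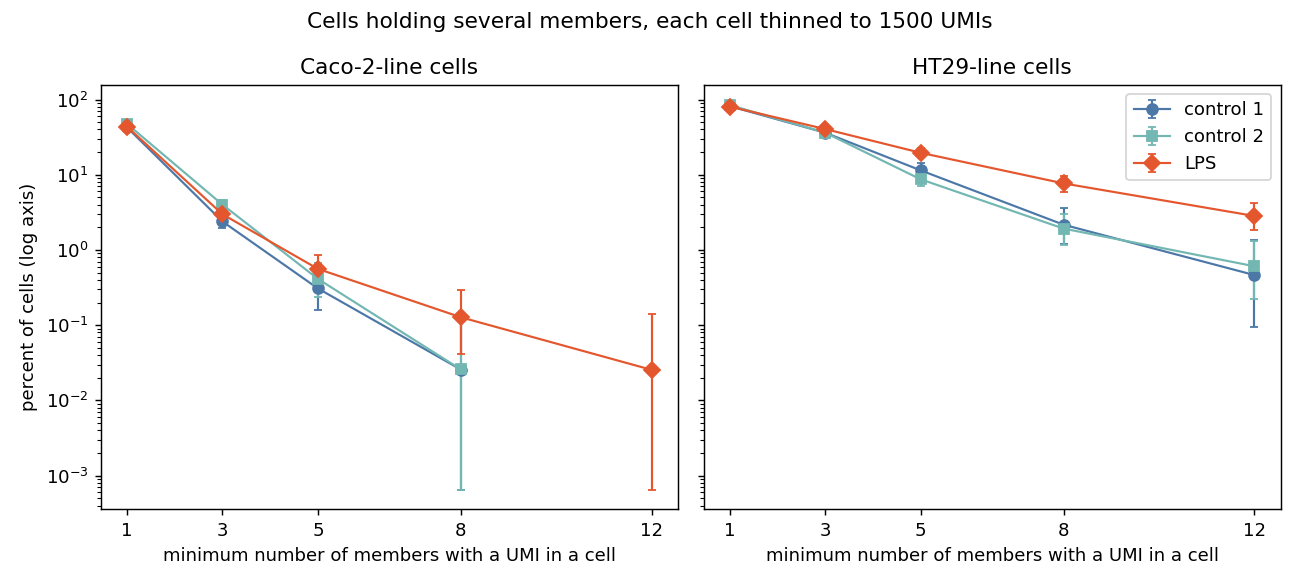
Percent of cells (log axis) that hold at least 1, 3, 5, 8 or 12 members after thinning to 1500 UMIs, for Caco-2-line cells on the left and HT29-line cells on the right, with 1 line per library and exact 95% binomial intervals. Shares of 0 are not drawn. In HT29-line cells the LPS library is level with the controls at 1 member (80.5% against 81.6% and 84.4%) and above them at 8 (7.67% against 2.17% and 1.93%).

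HT29-line cells with 5 or more members resembled the others in depth. Their median UMIs were 5186.5, 4067.5 and 3980, against 5450, 3727 and 3508 in the other HT29-line cells. Their mitochondrial share was higher in each library, at 3.33%, 3.61% and 4.35% against 2.71%, 2.65% and 3.31%, and their median line score was further to the HT29 side (5.35, 3.98 and 4.04 against 4.20, 3.54 and 3.32). The doublet score differed little in the controls (0.0569 and 0.0570 against 0.0527 and 0.0510) and was 0.0679 against 0.0529 in the LPS library. Their part in the result was not tested. With no cells removed for their doublet score the shares were 11%, 9.13% and 18.7%.

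The UMIs of some members lay in few of the HT29-line cells. HT29-line cells were split for each member by whether they held 5 or more of the other 36, a split chosen after the data had been seen. Those with 5 or more others held 75%, 60% and 98% of the UMIs of IFIT2 (control 1, control 2, LPS) and 50%, 73.3% and 96.3% of those of IFIT3, while making up 11.5%, 8.71% and 19.6% and 11.1%, 8.61% and 19.4% of the cells. IFIT2 was found in 1, 5 and 22 of them and in 1, 4 and 1 of the others, so the control shares rest on 4 and 10 UMIs. For IFI27 they held 16.3%, 13.1% and 36.1% of the UMIs in 6.04%, 3.85% and 13.7% of the cells, and for BST2 17.6%, 12.2% and 38.1% in 7.59%, 5.47% and 15.7%. ISG15 had 29.4%, 24.4% and 66.1% of its UMIs in 7.43%, 5.17% and 14.5% of the cells. These shares were higher in the LPS library for all 5 genes, as was the share of cells. Over all 37 members, the median level in the cells with 5 or more others was 46.3, 55.6 and 101.0 CPM after thinning, and in the other cells 5.81, 6.64 and 9.76 CPM. The LPS library was above both controls for 30 members and below both for 1 in the former, and for 17 and 8 in the latter. Of all genes, 39.4% were above and 24.3% below both controls in HT29-line cells without a split. The share of all genes within each part of the split was not computed. The split rests on members that were themselves higher in the LPS library, so these values describe where the UMIs lay and are no test of LPS.

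Members were detected together in single cells of each library. Among the 1% of all kept cells with the highest sum of the other 36 members (46, 50 and 48 cells), 36 of the 37 members were detected more often than in the remaining cells of each library. The median share of cells with a UMI was 6.52%, 10.0% and 27.1% in these cells and 0.480%, 0.749% and 0.916% in the rest. RSAD2 was found in 4.35%, 4% and 29.2% of the top cells. The top cells were drawn from both lines together and most members were higher in HT29-line cells, and the part of the line in this result was not tested. The share of all genes detected more often in these top cells was not computed. The count of members therefore does not set them apart from other genes.

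Within the HT29 line, the median Pearson correlation over pairs of members was 0.11, 0.12 and 0.28 (646, 987 and 847 cells, 630 or 666 pairs), and within the Caco-2 line it was 0.01, 0.01 and 0.03. The cells of a library share its depth and its free RNA, and most of these correlations are weak. Pairs with a correlation above 0.3 numbered 40, 42 and 283 in HT29-line cells and 1 in each library in Caco-2-line cells. The pair IFI6 and IFI27 had the highest value when pairs were ranked by their lowest library (0.62, 0.54 and 0.61), followed by IFIT1 and IFIT3 (0.46, 0.42 and 0.68) and by ISG15 and IFI27 (0.52, 0.40 and 0.57). IFIT2 and IFIT3 had 0.51, 0.37 and 0.73. Neighbours in the genome had unlike values. RSAD2 and CMPK2 had 0.59, 0.17 and 0.48, and PARP9 and DTX3L, which share a motif, had 0.12, 0.10 and 0.21. SAMD9 and SAMD9L had 0.01, 0.12 and 0.24, and HERC5 and HERC6 had -0.01, -0.01 and 0.12. SAMD9L was detected in 5, 9 and 14 HT29-line cells, HERC5 in 2, 2 and 7 and CMPK2 in 3, 5 and 14. Their values rest on few cells, and a low one does not show that a pair is not expressed together. IRF9 had a correlation of 0.01, 0.03 and 0.07 with the mean of the other members, and IFIT1 had 0.46, 0.41 and 0.76. IRF9 was detected in only 9, 16 and 18 HT29-line cells and IFIT1 in 47, 57 and 110.

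**Figure D4:**
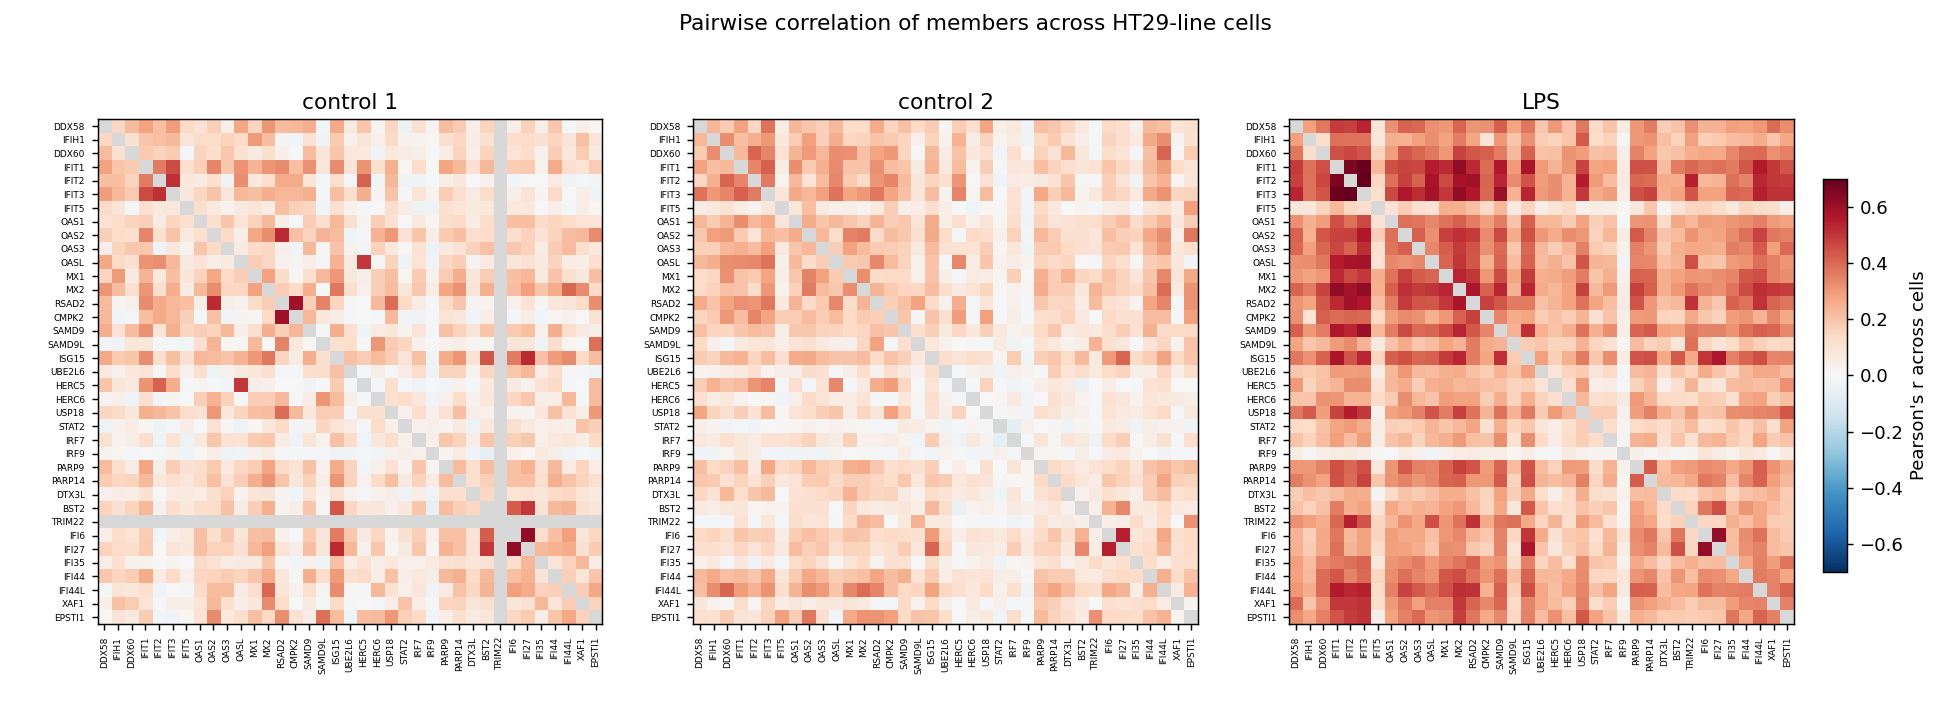
Pearson correlation across HT29-line cells for each pair of the 37 members, with 1 panel per library and the members ordered by role. Grey marks the diagonal and TRIM22 in control 1, where it had no UMI, and colours saturate at 0.7. The LPS panel is red over most pairs with a median of 0.28, the control panels have medians of 0.11 and 0.12, and IRF9 and IFIT5 stay pale in all 3. IRF9 had a UMI in 9, 16 and 18 of the cells (control 1, control 2, LPS) and IFIT5 in 39, 31 and 51.

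Genes outside the list that followed the members most closely depended on the cells compared. Over all kept cells the 15 genes with the highest mean correlation were led by SNCG (0.59, 0.52 and 0.47) and TSPAN1 (0.57, 0.48 and 0.48), which are among the markers used to set the HT29 line. Within HT29-line cells, a comparison added after the data had been seen, they included IFITM3 (0.45, 0.46 and 0.61), an inhibitor of viral entry, LY6E (0.48, 0.41 and 0.48) and B2M (0.51, 0.43 and 0.42), the light chain of MHC class I. HLA-B, HLA-C, PSMB9 and TAP1 of the class I pathway, the RNA-dependent kinase EIF2AK2 (PKR) and DDX60L were also among these 15. So were SNCG (0.38, 0.31 and 0.25) and IGFL2-AS1 (0.36, 0.23 and 0.36), which are in the list over all kept cells as well. The HT29 marker SNCG thus still followed the members within the HT29 line.

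The interferon pathway itself was partly present. The 9 interferon genes listed (IFNA1, IFNA2, IFNB1, IFNE, IFNK, IFNG, IFNL1, IFNL2 and IFNL3) summed to 16, 11 and 6 UMIs over all kept cells of control 1, control 2 and the LPS library. IFNB1 had 1 UMI, in a cell of control 1, and 0 of the 4850 cells of the LPS library had one. A count of 0 is compatible with up to 0.0619% of such cells having a UMI at this depth, and sets no limit on the cells that carry the RNA. The receptor subunits were found in both lines, with IFNAR1 at 32.8, 37.7 and 34.8 CPM in HT29-line cells and IFNLR1 at 3.20, 2.64 and 3.16 CPM. Of the 6 receptor genes (IFNAR1, IFNAR2, IFNLR1, IL10RB, IFNGR1 and IFNGR2) 2 were higher and 2 lower in HT29-line than in Caco-2-line cells, a share near the 72.8% of all genes called. The inhibitors SOCS1 and SOCS3 were lower in HT29-line cells (log2 -1.12 ± 0.18 and -3.75 ± 0.45), and TMEM173 (STING) was higher, at 10.8, 8.16 and 9.20 CPM against 0.0400, 0.258 and 0.0608 CPM. Of the 24 of 38 pathway genes tested between the lines, 12 were higher and 6 lower, in all again near the 72.8% of all genes called.

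With LPS, ZBP1, a sensor of Z-form nucleic acid, had the largest fitted difference of the 24 pathway genes tested in HT29-line cells. It had 2, 0 and 20 UMIs in HT29-line cells and none in Caco-2-line cells. Its fitted log2 difference of 4.34 ± 1.06 depends on the prior count, since control 2 was at 0. Over the 24 genes the median log2 difference was -0.08. TLR4 had 3, 1 and 1 UMIs in HT29-line cells and 3, 1 and 0 in Caco-2-line cells, and LY96 had 3, 0 and 1 and 1, 1 and 1. Of the 8 tested of 10 genes that LPS commonly raises through NF-κB (CXCL8, CXCL1, CXCL2, CCL20, NFKBIA, TNFAIP3, BIRC3, ICAM1, IL6 and TNF), none passed in HT29-line cells by edgeR, with a median log2 difference of -0.34. CXCL8, a neutrophil chemokine, was the only one with an unadjusted p below 0.05 (0.00164), at 19.2, 7.20 and 6.03 CPM. NFKBIA, the inhibitor of NF-κB, was at 71.4, 50.4 and 46.6 CPM there. 3 of the 8 were above both controls, against 39.4% of all genes in HT29-line cells. They were TNFAIP3 at 2.71, 3.36 and 6.61 CPM, BIRC3 at 7.63, 7.44 and 9.20 CPM and ICAM1 at 6.16, 6.72 and 8.05 CPM. CXCL8, CXCL1, CXCL2 and NFKBIA were below both controls, as were 24.3% of all genes.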

How the data were processed

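The authors sequenced 3 libraries with the 10x Genomics 3′ assay and deposited matrices of raw UMI counts per gene and barcode, made by Cell Ranger on GRCh38 without normalization. The file headers give version 3.1.0, and the study's key resources table gives another. Cells were kept at the study's minimums (770 genes in control 1 with a higher minimum of UMIs, and 1500 UMIs and 700 genes in control 2, used also for the LPS library) and at most 20% mitochondrial UMIs. Scrublet (scanpy 1.11.5) marked 0 cells by its own threshold, so the 6% with the highest scores were removed. Lines were set by a Gaussian mixture (scikit-learn 1.9.0) on the log2 ratio of marker UMIs. UMIs were summed per line and library and tested with edgeR 4.0.16 in R 4.3.3 (TMM, filterByExpr, quasi-likelihood, Benjamini-Hochberg, threshold 0.05), after tests on simulated data. The simulations gave every gene the same dispersion, so they cannot show how the tests fare where genes differ in their spread. The SE is the log2 difference over the square root of F. DESeq2 1.42.0 was the other tool. All 37 members were named, by role, with fold changes for those past the threshold. The members and lists were chosen with earlier results of these data known. Counting intervals are exact binomial ones, and floors are 3 counts. The library was the block between the lines, since both lines of a library grew in 1 Transwell. Alternatives were DESeq2, other size factors, no low-count filter, no doublet removal, other cell minimums, a stricter posterior, longer line lists, other thinning depths and leaving out each library. The comparison within HT29-line cells of the genes most like the members and the split by 5 other members were chosen after seeing the data. The values of 1 gene of the interferon pathway are not reported here.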

Additional observations from a re-analysis of the deposited data

Results flagged for a closer look

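4 members had an LPS effect that differed between the lines by a test of the interaction. The log2 difference between LPS and control was larger in HT29-line than in Caco-2-line cells by 3.07 for IFIT2, by 2.13 for IFIT3, by 1.01 for ISG15 and by 0.96 for IFI27. For IFIT2 the LPS library stood at 48.6 CPM in HT29-line cells against 6.90 and 4.80 CPM in the controls, and at 2.25 CPM in Caco-2-line cells against 1.80 and 2.74 CPM. For IFI27 it stood at 1416 CPM against 1005 and 1105 CPM in HT29-line cells, and at 47.2 CPM against 56.8 and 78.9 CPM in Caco-2-line cells. The 47.2 CPM lay within the level that free RNA or misplaced cells can leave in Caco-2-line cells of that library. Each value rests on 1 LPS library, and DESeq2 called none of the 4.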

How the results depend on the processing

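The count of members higher in HT29-line cells held within 1.5 times under every alternative, from 28 to 32, and without the replicate block 31 members were called (30 higher, 1 lower). Leaving out 1 library in turn gave 30 to 34 called. No paired analysis was possible for LPS against control, since the labels give no pairing of Transwells and there was 1 LPS library. Leaving out a control left no residual degree of freedom, so no such fit was run. Against control 1 alone the median log2 ratio of the members in HT29-line cells was 1.16 and against control 2 alone 1.08. Of the members called with LPS in HT29-line cells, DESeq2 called 4 and edgeR without the filter on low counts 0, while a line posterior of 0.99 gave 17. Over all cells DESeq2 called 3 and the minimums of control 1 gave 4. In Caco-2-line cells the count went from 0 to 1 without the filter. The interaction fell from 4 members to 0 with DESeq2 and to 0 with the full line lists of the study, and 6 were called with the minimums of control 1. No member reversed its direction among those called. The causes were not tested. The share of HT29-line cells with 5 or more members (control 1, control 2, LPS) was 17.3%, 12.2% and 25.5% when thinned to 2000 UMIs, 35.3%, 35.1% and 43.6% when thinned to 4000, and 47.2%, 32.9% and 40.4% without thinning, where control 1, the deepest library, came out highest. It was 36.2%, 36.3% and 40.5% for 3 or more members and 2.17%, 1.93% and 7.67% for 8 or more. Co-detection gave 37 in place of 36 members without thinning, and GAAA-NN-GAAA was found in 19 in place of 20 members in the 250 bases before the start. Depth limits RSAD2, CMPK2, XAF1, TRIM22, HERC5 and SAMD9L most, with 4 to 15 UMIs over both controls in HT29-line cells.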
